A study of Mus musculus with 2 samples.

Results

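The cells described here are monocytes without Arg1: 112 of the 7734 filtered cells of both libraries, chosen by their own counts of unique molecular identifiers (UMIs, 1 per captured RNA molecule). A cell was taken when Ly6c2 and Ccr2 together gave at least 2 UMIs and Lyz2 gave at least 3. It had to hold no UMI of Arg1, Cd3e, Cd79a, Krt8 or Krt18, fewer than 3 UMIs over C1qa, C1qb and C1qc, and fewer than 2 over Cd209a and Mgl2. At most 2% of its UMIs could come from the neutrophil markers S100a8, S100a9, G0s2, Csf3r and Retnlg. The values of these genes chose the cells and are given below as a description only.

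The study sequenced RNA from single CD45-positive cells of subcutaneous flank tumours, grown in female C57BL/6 mice of 6 to 7 weeks from MOC2, a mouse oral carcinoma line injected in 40% Matrigel. One group of mice received Momordicine-I, a triterpenoid of bitter melon, at 30 mg/kg by intraperitoneal injection once a day, once tumours had reached 80 to 100 mm3. The other received the vehicle alone, 5% DMSO with a 30% Captisol solution, in which Momordicine-I was dissolved. Each arm had 10 mice, but cells from 3 mice of an arm went into 1 pool before sorting and made 1 library, so neither group has a replicate, no test between the groups can be made, and treatment, pool and library cannot be told apart.

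Classical monocytes leave the bone marrow under the control of the chemokine receptor CCR2 and carry the surface protein Ly6C, which Ly6c2 encodes. In tumours they are known as a main source of macrophages. Macrophages of mouse tumours often make arginase-1, the product of Arg1, or complement component C1q. Monocytes also respond strongly to type I interferon, which acts through a receptor of the subunits IFNAR1 and IFNAR2 and factors such as STAT2 and IRF9 to switch on a broad set of antiviral genes.

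The filtered libraries held 4370 Momordicine-I cells with a median of 5002 UMIs and 3364 vehicle cells with a median of 5760 UMIs. The chosen cells were deeper, with medians of 15893.5 UMIs in the Momordicine-I library (3537 to 37670) and 14853 UMIs in the vehicle library (1860 to 38883), and with medians of 3281 and 3269.5 detected genes. They held 1318093 and 513420 UMIs in all. The libraries shared 10 cell barcodes, none of them among the 112 cells. Every interval below is an exact 95% interval and covers counting error only, not the difference between animals or pools.

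Monocytes without Arg1 made up a larger share of the Momordicine-I library. They were 82 of 4370 cells there, or 1.88% (1.495 to 2.32%, Clopper-Pearson), against 30 of 3364 cells, or 0.892% (0.602 to 1.27%), in the vehicle library, a ratio of 2.10 (1.37 to 3.31). Among cells with at most 2% neutrophil-marker UMIs they were 4.05% in the Momordicine-I library and 1.76% in the vehicle library, a ratio of 2.31 (1.503 to 3.63). Among such cells with at least 3 Lyz2 UMIs the shares were 26.2% and 16.9%, a ratio of 1.55 (1.01 to 2.43). So the size of the difference depended on the denominator, and it was in the same direction for these 3 denominators.

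The ratios of the neighbouring cells lay nearer to 1. Arg1-positive cells, which met every other term of the rule, numbered 34 in the Momordicine-I and 16 in the vehicle library, a ratio of shares of 1.64 (0.879 to 3.17). Cells with at least 3 C1q UMIs numbered 46 and 28, a ratio of 1.26 (0.774 to 2.10), and cells with at least 2 Cd209a or Mgl2 UMIs, genes of conventional dendritic cells, 77 and 40, a ratio of 1.48 (0.999 to 2.23). The intervals of all 3 include 1 and overlap that of monocytes without Arg1, and the differences between them were not tested. B cells, with at least 2 Cd79a UMIs, were the counterpart: 88 in the Momordicine-I and 235 in the vehicle library, a ratio of 0.288. All are shares of sorted CD45-positive cells, so one share also moves with the others.

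The rule cut through continuous values. Just inside it, 8 Momordicine-I and 3 vehicle cells had only 2 or 3 UMIs of Ly6c2 and Ccr2, and just outside it 5 and 4 cells had 1. With Lyz2 at 3 to 5 UMIs there were 4 and 3 members, while 23 cells in each library failed with 1 or 2. A single Arg1 UMI kept out 11 Momordicine-I and 3 vehicle cells, and 14 and 8 cells had 10 or more. The neutrophil-marker limit had 10 and 3 members above 0.5%, and 6 cells in each library were kept out at 2 to 4%.

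Ly6c2, Ccr2 and Lyz2 were terms of the rule, so their detection describes the chosen cells and is no support for the label. Ly6c2 and Ccr2 were found together in 68 of 82 Momordicine-I and 23 of 30 vehicle cells. Ccr2 without Ly6c2 was found in 12 and 4 cells, and Ly6c2 without Ccr2 in 2 and 3. Csf1r, the receptor for the main growth factor of monocytes and macrophages, was not part of the rule and had a UMI in 76 of 82 Momordicine-I and 27 of 30 vehicle cells. In B cells, with medians of 4974 and 6282 UMIs, it had one in 3 of 88 Momordicine-I and 9 of 235 vehicle cells. After each cell was thinned to 2000 UMIs it was still found in 35 of 82 and 15 of 29 of the monocytes.

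The 4 markers spread widely between cells. Levels are in CPM, the UMIs of a gene scaled to a total of 1e6. Ly6c2 had a lowest, median and highest level of 0, 512 and 11259 CPM in Momordicine-I cells, against 0, 626 and 13103 CPM in vehicle cells. Ccr2 ranged to 2186 CPM around a median of 676 CPM in Momordicine-I cells and to 2136 CPM around a median of 577 CPM in vehicle cells. Lyz2, which encodes lysozyme, had medians of 10645 CPM in Momordicine-I and 12848 CPM in vehicle cells, and Csf1r medians of 259 CPM in Momordicine-I and 433 CPM in vehicle cells. The ranges overlapped almost wholly between the libraries for all 4 genes. In B cells, Ly6c2 had a UMI in 1 of 88 Momordicine-I cells (1.14%) and 17 of 235 vehicle cells (7.23%). These 17 cells held 718 UMIs of Ly6c2, up to 246 in 1 cell, so the vehicle B cells are no measure of free RNA for this gene. After thinning to 2000 UMIs, Ly6c2, a gene of the rule, was found in 65.9% of 82 Momordicine-I and 58.6% of 29 vehicle monocytes.

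**Figure D1:**
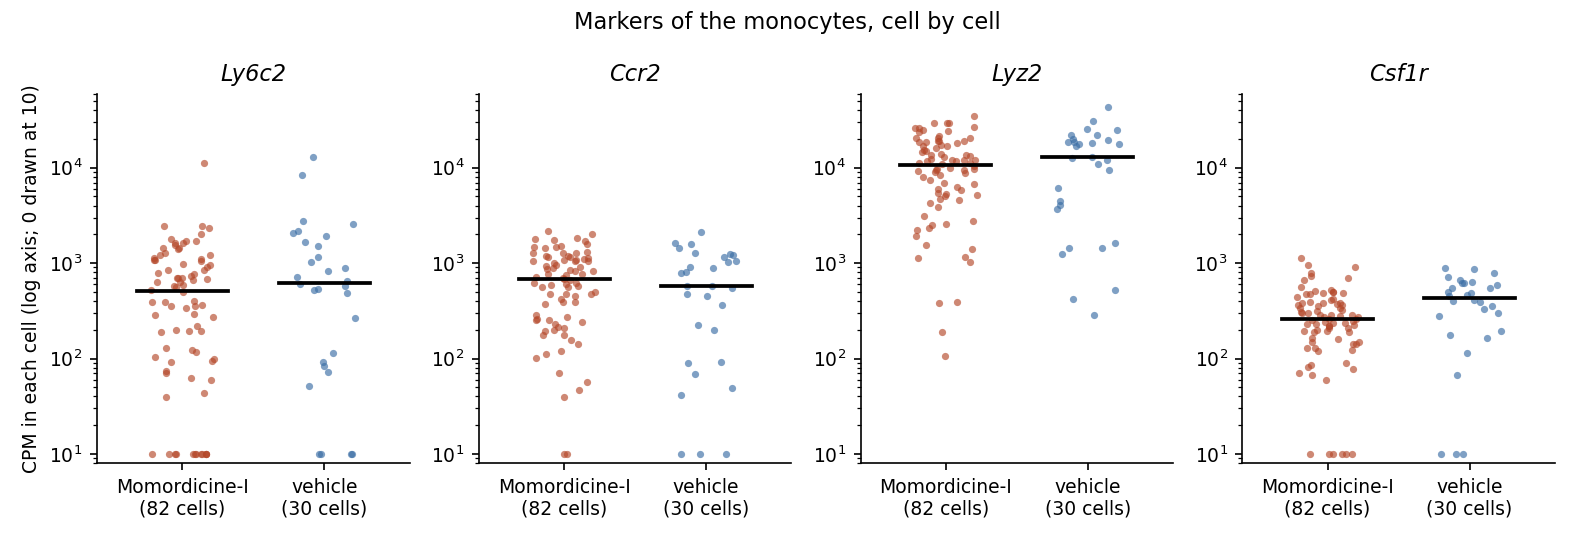
Levels of Ly6c2, Ccr2, Lyz2 and Csf1r in each monocyte without Arg1, in CPM on a log axis where 0 is drawn at 10, with 82 Momordicine-I cells left of 30 vehicle cells. Each point is a cell and each line a median, and the groups overlap in all 4 panels, with Ly6c2 medians of 512 and 626 CPM.

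Of the marker lists of other cell types, the neutrophil and macrophage lists held the most UMIs. The rule itself limited S100a8, S100a9, G0s2, Csf3r, Retnlg, C1qa, C1qb, C1qc, Cd209a, Mgl2, Cd3e, Cd79a, Krt8 and Krt18. Low values of the lists that hold these genes are therefore no support for the label. Neutrophil markers made up 0.299% of the UMIs of Momordicine-I and 0.243% of those of vehicle monocytes, with 10 and 9 of 10 markers detected and Ly6g at 0 in vehicle cells. Outside the rule, Trem1 had a UMI in 61 of 82 Momordicine-I and 22 of 30 vehicle cells and Hdc in 39 and 14. Mmp9 had one in 19 and 6, Cxcr2 in 17 and 3, and Ly6g in 1 Momordicine-I cell. Macrophage markers made up 0.137% and 0.0954%, with 7 and 8 of 8 detected and Mertk at 0 in Momordicine-I cells. Apoe had a UMI in 67 Momordicine-I and 26 vehicle cells and Adgre1 in 49 and 16, while Mrc1 had one in 8 and 2 and Ms4a7 in 6 and 5. B cell markers had 5 and 7 UMIs in all, with Ebf1 and Pax5 at 0 in both libraries, and both libraries had 0 UMIs of Siglech, Klk1 and Ly6d of the plasmacytoid dendritic list and of Jchain and Mzb1 of the plasma cell list. Other genes of these 2 lists were present: Bst2 had 143 UMIs in Momordicine-I and 125 in vehicle monocytes, Tcf4 134 and 50, Xbp1 451 and 213, and Sdc1 73 and 11. At least 5 UMIs of the plasmacytoid dendritic list were held by 25 of 82 Momordicine-I and 12 of 30 vehicle cells, and of the plasma cell list by 45 and 19. Single cells stood out: 1 Momordicine-I cell held 269 UMIs of mature dendritic cell markers, 1 held 164 UMIs of natural killer cell markers and 39 of T cell markers, and in the vehicle library 1 cell held 70 UMIs of natural killer cell markers and 1 held 39 of the cDC1 list. Neutrophil markers reached 610 UMIs in 1 Momordicine-I cell, 459 in another and 369 in 1 with only 4 Lyz2 UMIs. One vehicle cell held 42.7% of the vehicle UMIs of S100a9. Macrophage markers had 175 UMIs in 1 Momordicine-I cell. Without the cells that held at least 5 UMIs of a T, natural killer or B cell list or of the cDC1, cDC2 or mature dendritic list, the ratio of shares was 2.22, against 2.10 with them. The neutrophil and macrophage lists were not used in this step, so cells rich in those markers could stay in.

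Some cells were rich in RNA of MHC class II, the proteins that present antigen to helper T cells. The class II genes made up over 1% of UMIs in 12 of 82 Momordicine-I and 3 of 30 vehicle cells. In these 12 cells Ly6c2 stood at 297 CPM and Lyz2 at 4567 CPM, and in the 3 vehicle cells at 33.8 and 1768 CPM. In the other 70 Momordicine-I cells Ly6c2 stood at 809 CPM and Lyz2 at 12315 CPM, and in the other 27 vehicle cells at 1724 and 15613 CPM. Of the cells rich in class II RNA, 3 Momordicine-I and 1 vehicle cell held at least 5 UMIs of one of those 6 other-type lists, among them the Momordicine-I cell with mature dendritic markers and the vehicle cell with 39 UMIs of the cDC1 list. Without them the remaining 9 Momordicine-I cells had 299 CPM of Ly6c2 and 6129 CPM of Lyz2, and the remaining 2 vehicle cells had 1 UMI of Ly6c2 in all and 2926 CPM of Lyz2. The vehicle values rest on these few cells.

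Between the libraries, the genes of the interferon response were lower in Momordicine-I monocytes. Most classical monocyte genes, like most of all genes, lay within 1.5-fold. Over the summed UMIs of the cells, 6633 genes had at least 20 UMIs and were compared as the ratio of CPM, Momordicine-I over vehicle; a gene is called higher or lower past 1.5-fold. By that rule 785 genes (11.8%) were higher and 838 (12.6%) lower, and the median log2 ratio of all genes was -0.02. Of the 44 interferon response genes measured, 41 were lower and none higher, with a median log2 ratio of -1.57, or -1.76 without the cells that held RNA of another type. Counting intervals lay below 1 for 42 of the 44. A decrease of interferon genes in phagocytes of these libraries was known when the cells were chosen, so it is no independent evidence. In bulk sums of this kind, fewer cells that use a gene and less RNA in each cannot be told apart, which is why values per cell are given as well.

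Per cell, the summed share of interferon response genes had a lowest value, median and highest value of 0.0957, 0.329 and 2.78% of UMIs in Momordicine-I monocytes, against 0.0526, 0.636 and 5.53% in vehicle monocytes. The groups overlapped, but 23 of 82 Momordicine-I cells lay above 0.5%, against 21 of 30 vehicle cells. Above 2% lay 4 Momordicine-I and 3 vehicle cells, and these held 17.1% and 44.0% of the UMIs of the list. Without them the summed shares were 0.367% in Momordicine-I and 0.637% in vehicle monocytes, against 0.428% and 1.02% with them.

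**Figure D2:**
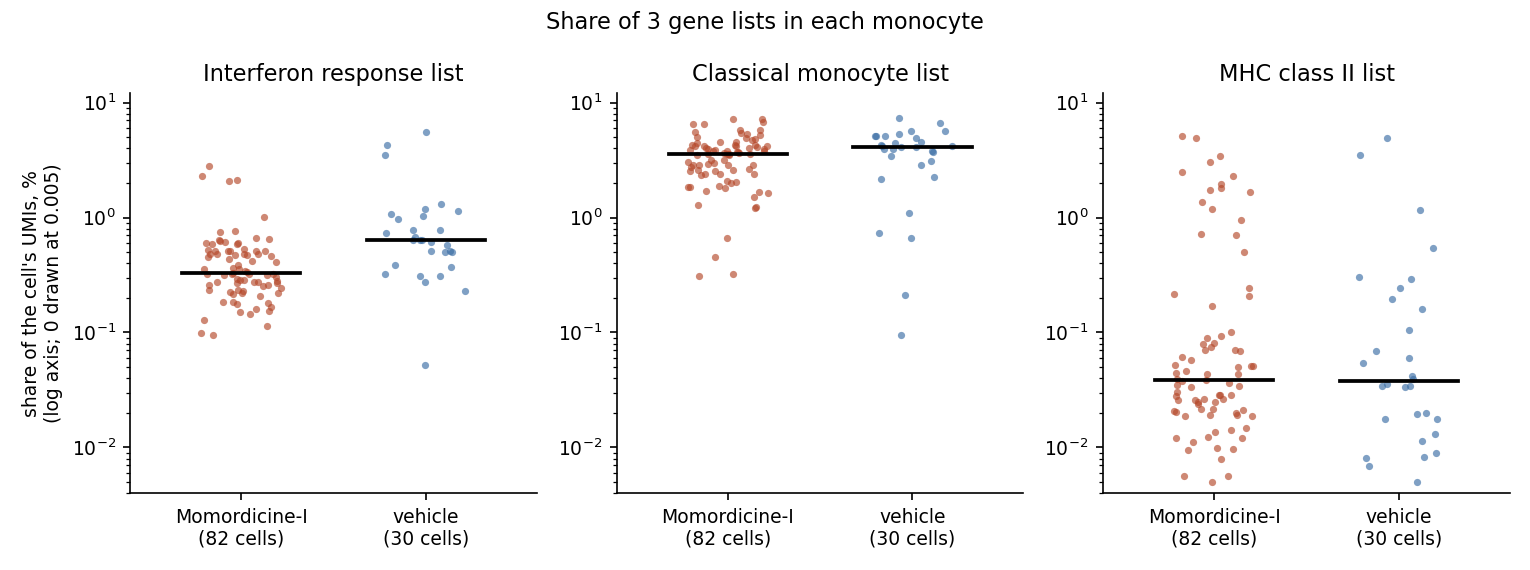
Share of each monocyte's UMIs that came from the interferon response, classical monocyte and MHC class II lists, in percent on a log axis where 0 is drawn at 0.005, with 82 Momordicine-I cells left of 30 vehicle cells. Points are cells and lines are medians, and the interferon response median is 0.329% in Momordicine-I and 0.636% in vehicle cells.

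Among the regulators, Irf7, the factor that amplifies the type I interferon response (chromosome 7, 141262706 to 141266481, minus strand of GRCm38), had 125 UMIs or 94.8 CPM in Momordicine-I monocytes and 210 UMIs or 409 CPM in vehicle monocytes. Its ratio was 0.232 (0.184 to 0.291). Stat2, which carries the signal from the receptor to the nucleus, stood at 41.7 CPM with Momordicine-I and 125 CPM with vehicle, a ratio of 0.335. The receptor genes Ifnar1, at 94.8 CPM with Momordicine-I and 66.2 CPM with vehicle, and Ifnar2, at 157 CPM with Momordicine-I and 138 CPM with vehicle, were not lower.

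The IFIT proteins bind foreign RNA and block its translation, and all 4 genes measured were lower, at log2 ratios of -3.32 to -1.51. Ifit1 stood at 15.2 CPM in Momordicine-I and 74.0 CPM in vehicle monocytes, and Ifit2 at 12.9 CPM with Momordicine-I and 115 CPM with vehicle. Isg15, a ubiquitin-like protein that is attached to other proteins (chromosome 4, 156199424 to 156200818, minus strand), had 100 UMIs or 75.9 CPM in Momordicine-I and 148 UMIs or 288 CPM in vehicle monocytes, a ratio of 0.263 (0.202 to 0.341). Usp18, the protease that removes it and dampens the receptor, had a log2 ratio of -1.57. Rsad2, whose product viperin makes a nucleotide that stops viral RNA synthesis, stood at 30.3 CPM with Momordicine-I and 284 CPM with vehicle, but 1 cell held 63.0% of its vehicle UMIs, and without the highest cell of each library its log2 ratio was -2.21 in place of -3.23.

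The Schlafen family, growth and antiviral regulators, was mixed. Slfn5 (chromosome 11, 82951349 to 82964840, plus strand) had 261 UMIs or 198 CPM in Momordicine-I and 354 UMIs or 689 CPM in vehicle monocytes, a ratio of 0.287 (0.244 to 0.338). It was found in 53 of 82 Momordicine-I and 26 of 30 vehicle monocytes, and after thinning to 2000 UMIs in 23.2% and 65.5% of them. In B cells it was found in 1 of 88 Momordicine-I and 60 of 235 vehicle cells, and after thinning in 1.15% and 14.7%. Slfn4 stood at 51.6 CPM with Momordicine-I and 242 CPM with vehicle. Slfn1 and Slfn2 were within 1.5-fold, and Slfn2, with 514 CPM in Momordicine-I and 577 CPM in vehicle monocytes, had a ratio of 0.892 (0.777 to 1.03). So within 1 family on chromosome 11, Slfn5 and Slfn4 were lower while Slfn2 was close to level.

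The stretch before the start of transcription is shown for 6 of these genes, 5 lower and 1 level, since many interferon response genes carry there the element bound by a complex that holds STAT2 and IRF9. The sequences are from RefSeq on GRCm38.p6, each the 250 bases before the start of 1 transcript, read 5′ to 3′ along the gene. Capitals mark the core of that element, TTTC and TTTC with any 2 bases between them (NN), searched on both strands, so that on the opposite strand it reads GAAA, NN and GAAA. Overlapping matches run together.
Isg15, chr4:156200819-156201068, minus strand: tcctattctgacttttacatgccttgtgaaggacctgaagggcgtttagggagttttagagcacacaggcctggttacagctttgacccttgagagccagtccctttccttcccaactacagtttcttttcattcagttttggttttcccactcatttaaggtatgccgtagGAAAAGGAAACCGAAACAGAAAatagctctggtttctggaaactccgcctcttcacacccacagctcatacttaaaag
Ifit1, chr19:34640639-34640888, plus strand: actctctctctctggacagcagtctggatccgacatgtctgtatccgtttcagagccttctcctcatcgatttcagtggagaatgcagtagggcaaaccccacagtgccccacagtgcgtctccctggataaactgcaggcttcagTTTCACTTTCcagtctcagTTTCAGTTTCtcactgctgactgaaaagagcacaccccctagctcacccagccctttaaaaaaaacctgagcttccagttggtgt
Rsad2, chr12:26456453-26456702, minus strand: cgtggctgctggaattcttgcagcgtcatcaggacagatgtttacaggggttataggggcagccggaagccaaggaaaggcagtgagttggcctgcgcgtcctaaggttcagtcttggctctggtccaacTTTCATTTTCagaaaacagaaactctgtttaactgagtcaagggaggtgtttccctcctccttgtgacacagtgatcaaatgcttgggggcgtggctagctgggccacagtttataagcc
Slfn5, chr11:82951852-82952101, plus strand: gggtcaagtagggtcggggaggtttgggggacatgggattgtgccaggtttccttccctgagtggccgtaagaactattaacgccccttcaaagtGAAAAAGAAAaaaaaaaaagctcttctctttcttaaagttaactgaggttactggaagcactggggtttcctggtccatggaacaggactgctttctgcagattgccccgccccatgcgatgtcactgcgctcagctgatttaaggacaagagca
Slfn4, chr11:83174936-83175185, plus strand: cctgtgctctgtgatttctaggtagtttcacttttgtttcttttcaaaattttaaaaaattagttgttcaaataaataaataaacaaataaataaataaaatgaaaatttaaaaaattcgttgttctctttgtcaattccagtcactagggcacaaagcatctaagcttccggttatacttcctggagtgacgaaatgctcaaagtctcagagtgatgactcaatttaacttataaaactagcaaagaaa
Slfn2, chr11:83064862-83065111, plus strand: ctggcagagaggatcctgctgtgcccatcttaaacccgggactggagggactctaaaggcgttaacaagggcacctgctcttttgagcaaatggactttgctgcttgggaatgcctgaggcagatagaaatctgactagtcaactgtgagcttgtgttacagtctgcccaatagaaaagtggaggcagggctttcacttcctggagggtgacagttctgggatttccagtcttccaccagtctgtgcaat
Isg15 holds 3 overlapping matches on the opposite strand that begin 78, 72 and 66 bases before the start. Ifit1 holds 2, at 104 and 85 bases, Rsad2 holds 1 at 120 bases, and Slfn5 holds 1 on the opposite strand at 155 bases. The Slfn5 window precedes the start of the RefSeq transcript shown. It lies inside the GENCODE span of the gene given above, which begins at 82951349. The windows of Slfn4, which was lower, and of Slfn2, which was level, hold none.

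A match is a description of letters and not of a bound site. In windows of 300 bases, from 250 before to 50 after the start, 22 of the 36 interferon response genes with a window held a match (61.1%). All 22 were among the 34 that were lower, but 12 of those 34 held none, Irf7, Ifit2, Slfn4, Ifi209 and Oasl1 among them, and neither did the 2 that were not lower. Over all 27025 genes of the table the share was 3.99%, and over the 5332 measured genes with a window 4.59%. Outside both interferon lists, matches were found in 40 of 644 lower genes (6.21%), 19 of 623 higher genes (3.05%) and 156 of 4018 genes within 1.5-fold (3.88%). Matches were found in 8 of the 11 interferon-gamma response genes with a window (72.7%) and in none of the 5 MHC class II genes with one.

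The Ifi200 family of DNA sensors and regulators, which lies together on chromosome 1, was lower in all 8 genes measured, at log2 ratios of -4.40 to -0.93. Ifi211 stood at 137 CPM in Momordicine-I and 432 CPM in vehicle monocytes, Ifi209 at 97.1 CPM with Momordicine-I and 306 CPM with vehicle and Ifi203 at 103 CPM with Momordicine-I and 316 CPM with vehicle. Mndal, a relative, stood at 107 CPM with Momordicine-I and 288 CPM with vehicle. Ifi213 had 4 UMIs in Momordicine-I and 33 in vehicle monocytes. These genes are close copies of each other, and how reads that fit several of them were assigned is uncertain, so the value of any 1 gene is uncertain too.

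The OAS family holds enzymes that activate RNA decay on sensing double-stranded RNA, a role not meant here for the OAS-like genes Oasl1 and Oasl2. With these included, 5 of 5 genes were lower, at log2 ratios of -2.05 to -0.64. The RNA and DNA sensors Ddx58, Ifih1 and Zbp1 were lower too, at -1.36 to -0.76. Bst2, which tethers budding virus to the cell, stood at 108 CPM in Momordicine-I and 243 CPM in vehicle monocytes. Ifi27l2a, the gene with the most UMIs of the list, at 917 CPM with Momordicine-I and 1739 CPM with vehicle, and Ms4a4c, at 271 CPM with Momordicine-I and 499 CPM with vehicle, had ratios of 0.527 and 0.543. Phf11d had 1 UMI in Momordicine-I and 28 in vehicle monocytes, a ratio of 0.0139 with a wide interval of 0.000340 to 0.0841.

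The rule for named genes added others at the lower end. Lgals3bp, a secreted lectin-binding protein, stood at 50.1 CPM in Momordicine-I and 129 CPM in vehicle monocytes. Rnf213, a large ubiquitin ligase, stood at 88.8 CPM with Momordicine-I and 208 CPM with vehicle, and Dtx3l, a ubiquitin ligase of DNA repair and antiviral defence, at 47.0 CPM with Momordicine-I and 121 CPM with vehicle. The interferon-inducible GTPases Irgm1, at 16.7 CPM with Momordicine-I and 95.4 CPM with vehicle, and Ifi47, at 26.6 CPM with Momordicine-I and 101 CPM with vehicle, had ratios of 0.175 and 0.262. Of the 12 genes named at the lower end, 7 are in the interferon response list (Slfn5, Ifi211, Ifi209, Ifi203, Ifi47, Stat2 and Bst2) and Irgm1 is in the interferon-gamma list. The interferon response list holds 44 of the 6633 measured genes. The 12 were picked by their ratios from 2650 candidates of these same data, so their number adds no evidence.

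**Figure D3:**
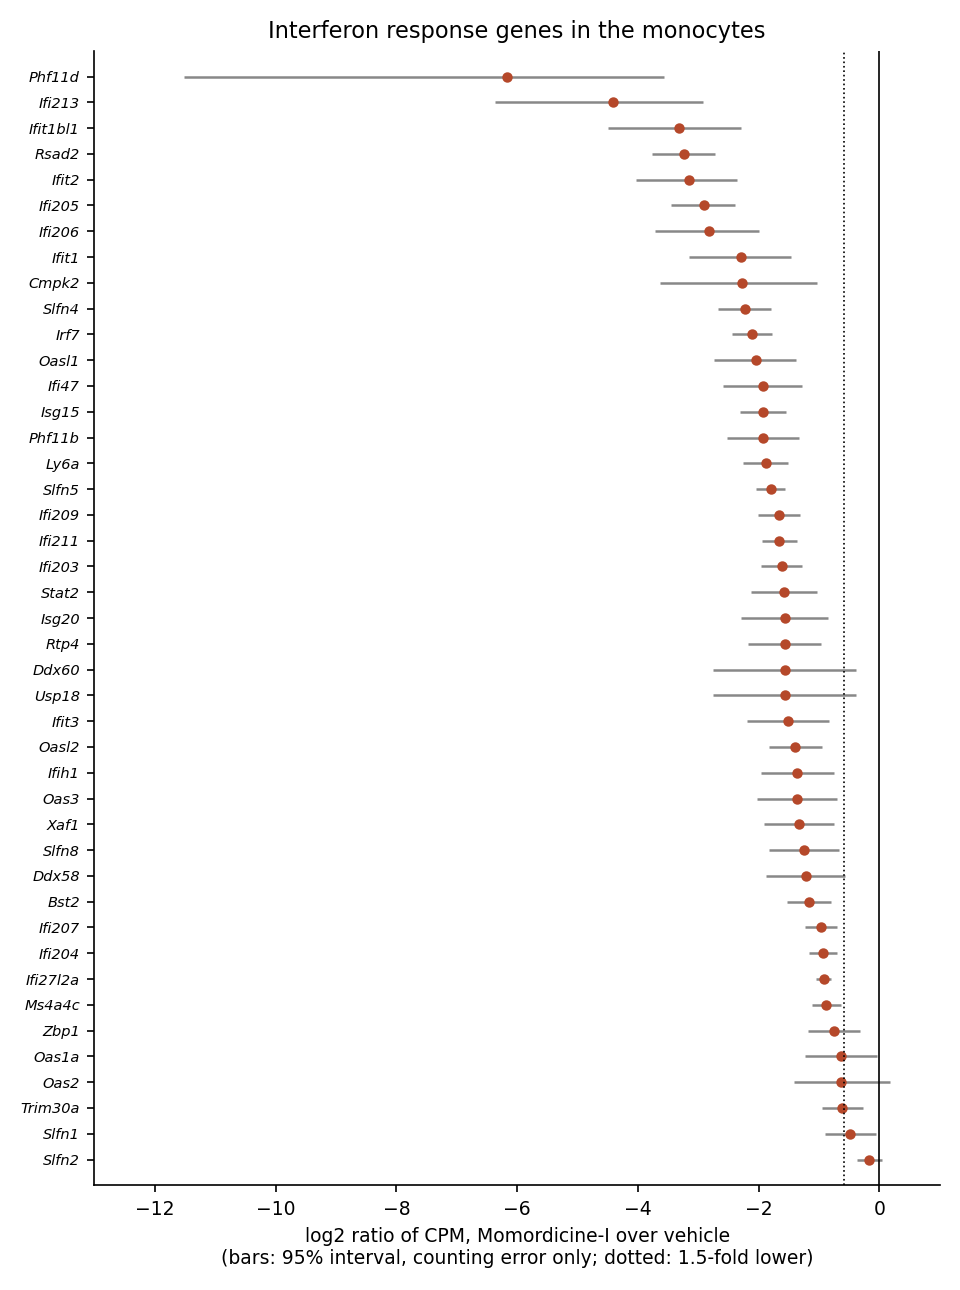
Log2 ratio of CPM, Momordicine-I over vehicle, of 43 of the 44 interferon response genes measured in monocytes without Arg1, with exact 95% intervals for counting error. The dotted line marks a 1.5-fold lower level, and 41 genes lie beyond it and Slfn2, at -0.16, is nearest to 0.

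At the main settings, the median of the list was also below 0 in the other sets of cells, and nearer to 0 than in the monocytes. Under the alternatives the monocyte median ran from -1.85 to -1.04, a range that takes in the medians of B cells and Arg1-positive cells. The alternatives were not run on this list in the other sets, and the measured genes differed between sets. The median log2 ratio of the list was -1.18 in Arg1-positive cells, where 31 of 39 measured genes were lower against 16.9% of all genes. It was -0.78 in C1q cells, with 24 of 42 lower against 17.1% of all genes and 6 higher against 18.9%, among them Irf7, Ifi27l2a and Ms4a4c at log2 ratios of 0.65, 0.82 and 0.80. In Cd209a or Mgl2 cells it was -0.69, with 25 of 45 lower against 11.5% and 2 higher against 10.7%. B cells had a median of -1.42 with 29 of 36 lower against 15.5%, and neutrophils, cells with more than 2% neutrophil-marker UMIs, -0.48 with 20 of 46 lower against 5.75% and 2 higher against 9.66%. Whether the sets differed was not tested.

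**Figure D4:**
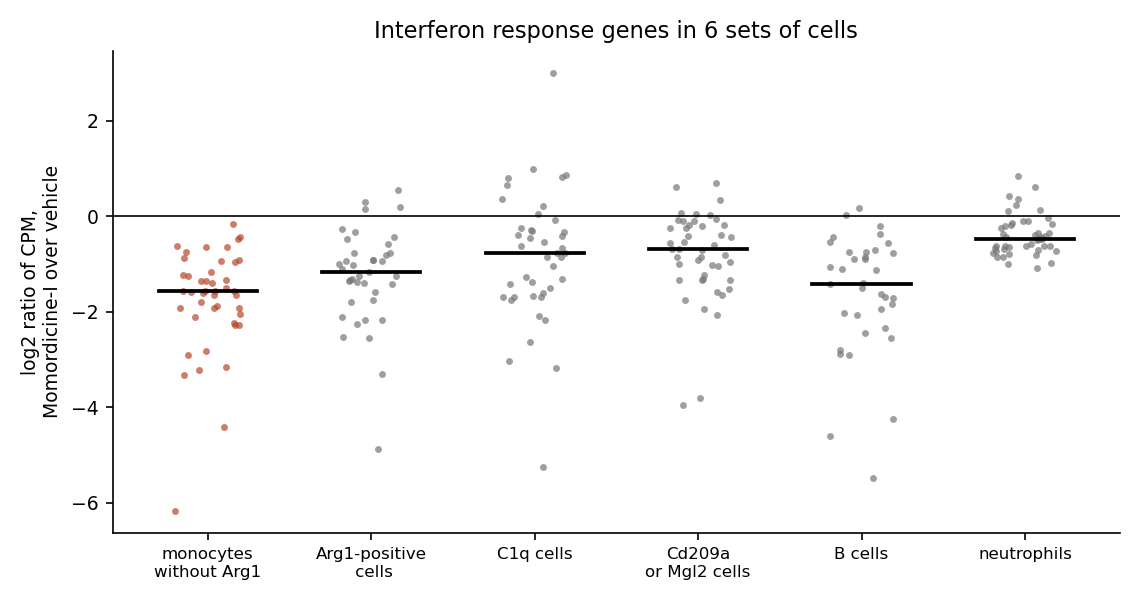
Log2 ratio of CPM, Momordicine-I over vehicle, of each interferon response gene with at least 20 UMIs in monocytes without Arg1 and 5 other sets of cells. Points are genes and lines are medians, which run from -1.57 in the monocytes to -0.48 in neutrophils.

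Genes that respond mainly to interferon-gamma were less uniform. Of 14 measured, 7 were lower and 1 higher, against 12.6% and 11.8% of all genes, with a median of -0.68. Cd274, which encodes the checkpoint ligand PD-L1, stood at 67.5 CPM in Momordicine-I and 123 CPM in vehicle monocytes. Cxcl10, a chemokine that attracts T cells, stood at 9.86 CPM with Momordicine-I and 333 CPM with vehicle, but 1 cell held 83.6% of its vehicle UMIs. The exception was Acod1, which makes the antibacterial metabolite itaconate, at 164 CPM with Momordicine-I and 50.6 CPM with vehicle, a ratio of 3.24 (2.15 to 5.07), though its log2 ratio was -0.99 with the rule applied after thinning each cell to 3000 UMIs. In neutrophils Acod1 stood at 1684 CPM with Momordicine-I and 2197 CPM with vehicle.

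Of MHC class I, which presents peptides to killer T cells, 13 of 17 measured genes were within 1.5-fold. Another 3 were lower and 1 was higher, against 12.6% and 11.8% of all genes. The median was -0.17, or -0.36 by the mean of the cells' CPM, and counting intervals lay below 1 for 7 of the 17. H2-T22 stood at 53.1 CPM in Momordicine-I and 144 CPM in vehicle monocytes, while H2-K1, at 913 CPM with Momordicine-I and 1005 CPM with vehicle, and B2m, at 2223 CPM with Momordicine-I and 2838 CPM with vehicle, were within 1.5-fold. The class II list had a median of -0.47 with 3 of 8 genes lower, against 12.6% of all genes. Ciita, the master regulator of class II, stood at 28.8 CPM in Momordicine-I and 97.4 CPM in vehicle monocytes. The other lower genes were H2-Eb1, at 602 CPM with Momordicine-I and 980 CPM with vehicle, and H2-DMb2, at 12.1 CPM with Momordicine-I and 19.5 CPM with vehicle. H2-Aa, at 884 CPM with Momordicine-I and 1313 CPM with vehicle, H2-Ab1, at 1085 CPM with Momordicine-I and 1393 CPM with vehicle, and Cd74, at 2410 CPM with Momordicine-I and 2910 CPM with vehicle, were within 1.5-fold. For each of these genes 1 cell held 30.0 to 66.0% of the vehicle UMIs, and when each cell counted alike, as the mean of the cells' CPM, the median of the class II list was 0.05. Among cells with both Ly6c2 and Ccr2 it was 0.57, so the direction of the class II list depended on the setting.

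The genes of the classical monocyte were mostly within 1.5-fold, 18 of 22 measured, as were most of all genes. Their median was -0.29, with 1 higher and 3 lower, against 11.8% and 12.6% of all genes. Counting intervals lay below 1 for 10 of the 22, and the list includes the rule genes Ly6c2, Ccr2 and Lyz2. Ly6c2, a gene of the rule, had 956 UMIs or 725 CPM in Momordicine-I and 735 UMIs or 1432 CPM in vehicle monocytes, a ratio of 0.507 (0.460 to 0.559). The 3 vehicle cells with over 2% interferon response UMIs held 48.2% of its vehicle UMIs, and the 4 Momordicine-I cells 13.3%; without these cells Ly6c2 stood at 650 CPM with Momordicine-I and 826 CPM with vehicle. Across cells, the share of Ly6c2 and that of the interferon response list had a Spearman correlation of 0.36 in 82 Momordicine-I cells and 0.54 in 30 vehicle cells, as a description of cells that share a library. Plac8, a lysosomal protein of myeloid cells, stood at 2045 CPM with Momordicine-I and 3095 CPM with vehicle, a ratio of 0.661. Ms4a4c, also in the interferon list, was the third lower gene.

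Vcan, a matrix proteoglycan that classical monocytes make, was the 1 higher gene of the list, at 633 CPM in Momordicine-I and 405 CPM in vehicle monocytes. Chil3, a chitinase-like protein of monocytes and macrophages, was level at 4871 CPM with Momordicine-I and 4663 CPM with vehicle, as was Cd14, the co-receptor for bacterial lipopolysaccharide, at 1412 CPM with Momordicine-I and 1358 CPM with vehicle. Fn1, fibronectin, stood at 1146 CPM with Momordicine-I and 923 CPM with vehicle and F13a1, a clotting factor subunit, at 405 CPM with Momordicine-I and 337 CPM with vehicle. Csf1r stood at 283 CPM with Momordicine-I and 401 CPM with vehicle, a ratio of 0.705 that is within 1.5-fold. Ly6c1, the close copy of Ly6c2, had 6 UMIs in Momordicine-I and 2 in vehicle monocytes.

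Genes of other monocyte states were mostly within 1.5-fold as well, like most of all genes. Of the non-classical list, the patrolling Ly6C-low monocytes, 11 of 14 measured genes were within 1.5-fold. They included Cx3cr1, its chemokine receptor, at 54.6 CPM in Momordicine-I and 39.0 CPM in vehicle monocytes, and Nr4a1, its key transcription factor, at 313 CPM with Momordicine-I and 230 CPM with vehicle. Adgre4 and Treml4 were lower and Cd300ld higher, 2 and 1 of the 14 genes, against 12.6% and 11.8% of all genes. Of 20 macrophage differentiation genes, 5 were higher and 3 lower, against 11.8% and 12.6% of all genes, with a median of 0.13. Cd63, a protein of lysosomes and exosomes, stood at 77.4 CPM with Momordicine-I and 29.2 CPM with vehicle, Ctsd, a lysosomal protease, at 376 CPM with Momordicine-I and 245 CPM with vehicle, and Apoe, which carries lipid out of the cell, at 1256 CPM with Momordicine-I and 834 CPM with vehicle. Spp1, osteopontin, stood at 111 CPM with Momordicine-I and 183 CPM with vehicle, with 74.5% of its vehicle UMIs in 1 cell, and its log2 ratio was 0.50 without the highest cell of each library.

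The genes named at the higher end were of several kinds. Cxcr4, the receptor that holds monocytes in bone marrow and draws them to CXCL12, had 514 UMIs or 390 CPM in Momordicine-I and 92 UMIs or 179 CPM in vehicle monocytes, a ratio of 2.18 (1.74 to 2.75). Atf3, a stress-induced factor that restrains inflammatory genes, stood at 745 CPM with Momordicine-I and 386 CPM with vehicle. Ptgs2, the enzyme that starts prostaglandin synthesis, stood at 643 CPM with Momordicine-I and 351 CPM with vehicle, Nfkbiz, a nuclear partner of NF-κB, at 373 CPM with Momordicine-I and 193 CPM with vehicle, and Tnfaip3, an inhibitor of NF-κB signalling, at 168 CPM with Momordicine-I and 81.8 CPM with vehicle. Their ratios were 1.93, 1.84, 1.93 and 2.06. Neutrophils held more of some of these genes than the monocytes did. Ptgs2 stood there at 2312 CPM with Momordicine-I and 2316 CPM with vehicle, Nfkbiz at 1643 and 1602 CPM and Cxcr4 at 783 and 653 CPM. Atf3 stood there at 638 and 587 CPM and Pid1 at only 16.2 and 9.06 CPM. The part of neutrophil RNA in the monocyte values was not tested. Pid1, at 171 CPM with Momordicine-I and 76.0 CPM with vehicle, Psmc5, a proteasome subunit, at 70.6 CPM with Momordicine-I and 25.3 CPM with vehicle, Frrs1, at 72.8 CPM with Momordicine-I and 27.3 CPM with vehicle, and Bcl2a1a, an inhibitor of cell death with near-identical copies, at 56.9 CPM with Momordicine-I and 19.5 CPM with vehicle, rested on 10 to 39 vehicle UMIs. Ankrd33b had 68 UMIs in Momordicine-I and 4 in vehicle monocytes, a ratio of 6.62 (2.47 to 24.998). Ifitm1, an antiviral membrane protein, was higher, at 1184 CPM with Momordicine-I and 713 CPM with vehicle, against the direction of the interferon response list, with 53.3% of its vehicle UMIs in 1 cell. When the rule was applied after thinning each cell to 3000 UMIs, which gave 97 Momordicine-I and 35 vehicle cells, the log2 ratios of Nfkbiz, Tnfaip3 and Ifitm1 turned to -0.057, -0.43 and -0.48 and those of Ptgs2, Ankrd33b and Bcl2a1a came down to 0.09, 0.17 and 0.18, while those of Cxcr4, Atf3 and Pid1 stayed above 0 under every alternative tried.

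Ccl2, the ligand of CCR2, stood at 191 CPM in Momordicine-I and 68.2 CPM in vehicle monocytes, a ratio of 2.80 (1.96 to 4.12). It had a UMI in 28 of 82 Momordicine-I cells (34.1%) and 5 of 30 vehicle cells (16.7%). After thinning the shares were 19.5% and 6.90%. In B cells, which should lack it, 0 of 88 Momordicine-I and 5 of 235 vehicle cells (2.13%) had a UMI. After thinning, 0 of 87 Momordicine-I and 0 of 232 vehicle B cells had one, which by 3 counts of the total allows shares of cells with a UMI of up to 3.45% and 1.29%. Since 1 cell held 85.7% of the vehicle UMIs of Ccl2, the vehicle level rests on it, and with the rule applied after thinning to 3000 UMIs the log2 ratio was -0.34. As a group the chemokines were mixed, with a median of 0.08. Of 14 measured, 5 were higher and 3 lower, against 11.8% and 12.6% of all genes. Ccl22 and Ccl17, ligands of CCR4, had no vehicle UMI, and nearly all their Momordicine-I UMIs (99.3% and 100%) came from the 1 cell with mature dendritic markers. Ccl4, a chemokine that attracts leukocytes, was lower at 161 CPM with Momordicine-I and 360 CPM with vehicle, but its log2 ratio was -0.09 among cells with both Ly6c2 and Ccr2.

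Genes of survival and stress went both ways. In the survival and death list 5 of 18 measured genes were higher and 2 lower, against 11.8% and 12.6% of all genes. The higher ones included Bcl2l1, which blocks cell death, at 49.3 CPM in Momordicine-I and 17.5 CPM in vehicle monocytes, and Bbc3, which promotes it, with 36 UMIs in Momordicine-I and 3 in vehicle monocytes. With the rule applied after thinning to 3000 UMIs the log2 ratio of Bcl2l1 was 0.11. The lower ones were Casp4, an inflammatory caspase, at 73.6 CPM with Momordicine-I and 113 CPM with vehicle, and Bcl2a1d, a near-identical copy of Bcl2a1a, at 74.3 CPM with Momordicine-I and 129 CPM with vehicle, with 47.0% of its vehicle UMIs in 1 cell. In the stress list 3 of 11 were higher and 1 lower, against the same shares of all genes. The higher ones were Atf3, Nupr1, at 144 CPM with Momordicine-I and 76.0 CPM with vehicle, and Atf4, the factor of the integrated stress response, at 426 CPM with Momordicine-I and 275 CPM with vehicle. Hspa1a, a heat-shock protein, was lower at 1394 CPM with Momordicine-I and 2096 CPM with vehicle. Of genes for suppression and wound healing, Tgfb1 stood at 577 CPM with Momordicine-I and 709 CPM with vehicle, Vegfa at 210 CPM with Momordicine-I and 230 CPM with vehicle and Thbs1, a matrix protein that activates TGF-β, at 2835 CPM with Momordicine-I and 3695 CPM with vehicle, all within 1.5-fold. Hmox1, which breaks down haem, was lower at 317 CPM with Momordicine-I and 590 CPM with vehicle, and Saa3, an acute-phase protein, at 55.4 CPM with Momordicine-I and 485 CPM with vehicle, where 45.4% of vehicle UMIs came from 1 cell. Elsewhere Saa3 was higher with Momordicine-I: 107 against 3.40 CPM in Arg1-positive cells, 131 against 19.7 CPM in C1q cells, 346 against 4.01 CPM in B cells and 220 against 68.6 CPM in neutrophils. Cd209a or Mgl2 cells had 2 UMIs with Momordicine-I and 1 with vehicle. None of 20 genes for colony-stimulating factors and cytokine receptors was past 1.5-fold, against 11.8% of all genes higher and 12.6% lower.

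Within each library, monocytes without Arg1 were then set beside the Arg1-positive cells, 82 against 34 in the Momordicine-I and 30 against 16 in the vehicle library. The sets were chosen on their own RNA, so this is a description. At least 1.5-fold in both libraries, 179 of 4544 genes (3.94%) were higher and 197 (4.34%) lower in the cells without Arg1. Glycolysis genes were lower: 7 of 15 in both libraries, none higher, with median log2 ratios of -0.62 in the Momordicine-I and -0.89 in the vehicle library, against -0.05 and -0.01 for all genes. Gapdh stood at 1526 CPM in monocytes without Arg1 and 2339 CPM in Arg1-positive cells of the Momordicine-I library, and at 1104 and 2267 CPM in those of the vehicle library. Pgk1, the enzyme of the next step, stood at 325 CPM in the monocytes and 575 CPM in Arg1-positive cells with Momordicine-I, and at 273 and 721 CPM in those with vehicle. The others were Ldha, Tpi1, Hk2, Pgam1 and Slc2a3.

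Genes induced by low oxygen followed the same order, with 5 of 12 lower in both libraries, none higher, and medians of -0.69 and -1.46. Egln3, an oxygen sensor that marks HIF for decay, stood at 33.4 CPM in monocytes without Arg1 and 101 CPM in Arg1-positive cells of the Momordicine-I library, and at 46.7 and 245 CPM in those of the vehicle library. Bnip3, which acts in the removal of mitochondria, stood at 66.0 CPM in the monocytes and 119 CPM in Arg1-positive cells with Momordicine-I, and at 50.6 and 211 CPM in those with vehicle. Mif, a cytokine that holds macrophages in place, stood at 258 CPM in the monocytes and 569 CPM in Arg1-positive cells with Momordicine-I, and at 175 and 561 CPM in those with vehicle. Vegfa differed between the libraries: its log2 ratio was -1.02 in the Momordicine-I and 0.27 in the vehicle library. Cdh1, E-cadherin, was also lower, with ratios of 0.293 and 0.173, as were Cd9, Fcgr2b, Spint1, Mmp14, Tuba1b and AA467197.

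**Figure D5:**
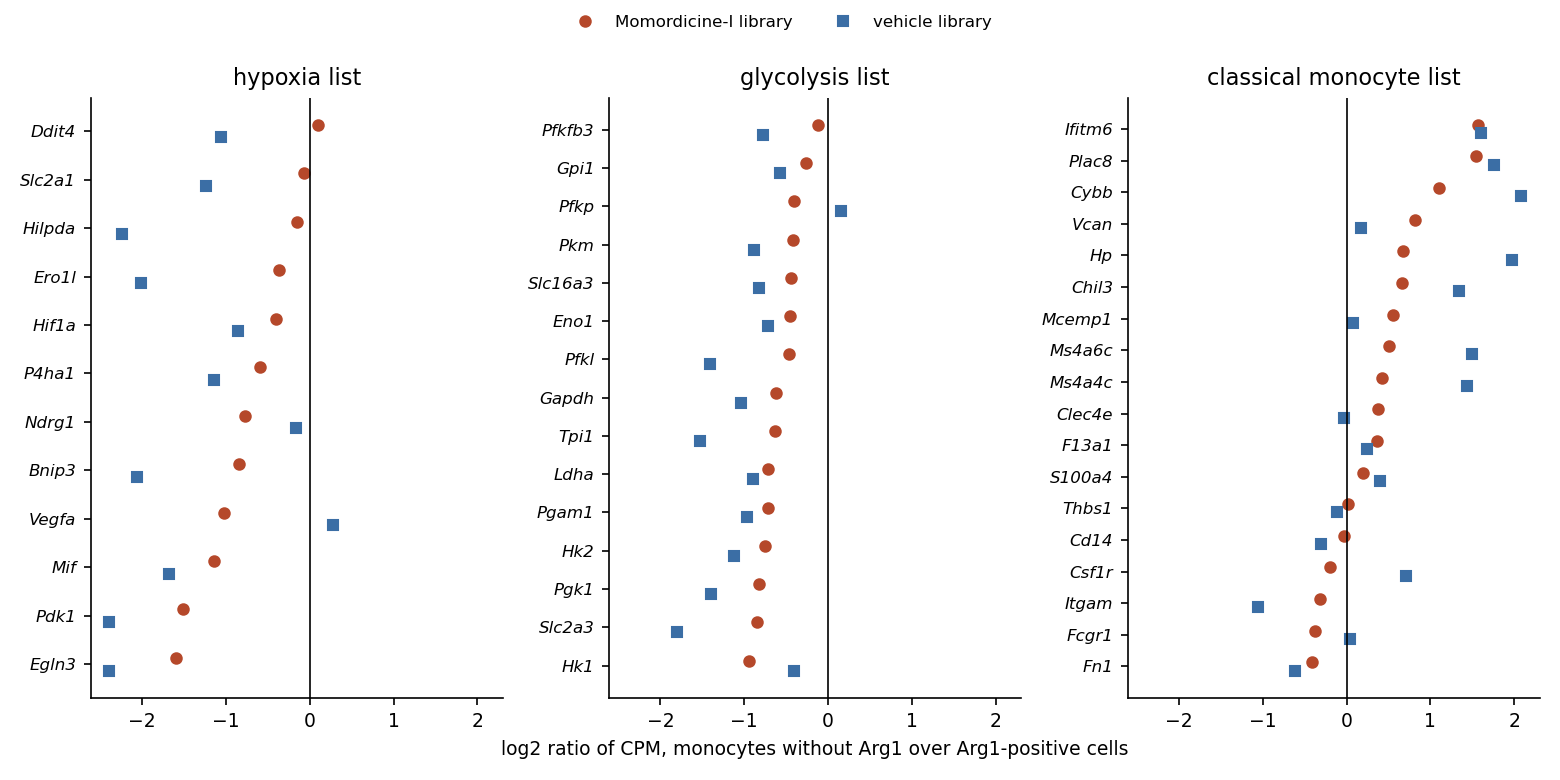
Log2 ratio of CPM, monocytes without Arg1 over Arg1-positive cells, of genes of the hypoxia, glycolysis and classical monocyte lists, a point for each gene and library. Circles are the Momordicine-I library and squares the vehicle library, and the glycolysis medians are -0.62 and -0.89.

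On the other side, 6 of 19 classical monocyte genes, the genes of the rule left out, were higher in the cells without Arg1 in both libraries, with medians of 0.42 and 0.40. Plac8 stood at 2045 CPM in monocytes without Arg1 and 700 CPM in Arg1-positive cells of the Momordicine-I library, and at 3095 and 918 CPM in those of the vehicle library, ratios of 2.92 (2.65 to 3.23) and 3.37 (2.96 to 3.85). Ifitm6 had ratios of 2.97 and 3.04. Cybb, the core of the oxidase that makes superoxide, stood at 753 CPM in the monocytes and 351 CPM in Arg1-positive cells with Momordicine-I, and at 1021 and 241 CPM in those with vehicle. Chil3 had ratios of 1.59 and 2.54, and Hp, haptoglobin, 1.59 and 3.93. Samhd1, Mgst1 and Smpdl3a were higher as well. Interferon response genes were higher in 7 of 39 and lower in 1. Irf7 was among the higher ones, at 94.8 CPM in the monocytes and 46.5 CPM in Arg1-positive cells with Momordicine-I, and at 409 and 122 CPM in those with vehicle. The neutrophil-marker share was a median of 0.0504% in monocytes without Arg1 and 0.0600% in Arg1-positive cells of the Momordicine-I library, and 0.0591% and 0.698% in those of the vehicle library; its part in these differences was not tested.

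Beside the cells with C1q, 219 of 5004 genes (4.38%) were higher and 371 (7.41%) lower in monocytes without Arg1 in both libraries. Macrophage differentiation genes were lower in 14 of 23 and higher in none. Apoe stood at 1256 CPM in monocytes without Arg1 and 3381 CPM in C1q cells of the Momordicine-I library, and at 834 and 3165 CPM in those of the vehicle library. Mrc1, the mannose receptor of tissue macrophages, stood at 21.2 CPM in the monocytes and 124 CPM in C1q cells with Momordicine-I, and at 7.79 and 229 CPM in those with vehicle. Chemokines were lower in 8 of 14, Ccl3 at 310 CPM in the monocytes and 943 CPM in C1q cells with Momordicine-I, and at 382 and 2070 CPM in those with vehicle. Ccl2 went opposite ways, with log2 ratios of 1.38 in the Momordicine-I and -2.80 in the vehicle library. Classical monocyte genes were higher in 9 of 19, Plac8, Ifitm6 and Chil3 among them, and Dmkn, dermokine, stood at 77.4 CPM in the monocytes and 5.45 CPM in C1q cells with Momordicine-I, and at 97.4 and 9.87 CPM in those with vehicle. Median neutrophil-marker shares in the C1q cells were 0.271% in the Momordicine-I and 0.821% in the vehicle library, and their part was not tested.

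The cells with Cd209a or Mgl2 differed in the most genes of the 3 neighbouring sets: 783 of 6932 genes (11.3%) were higher and 1137 (16.4%) lower in monocytes without Arg1 in both libraries. All 10 MHC class II genes measured were lower, with medians of -2.96 and -2.45. Cd74, the invariant chain, stood at 2410 CPM in monocytes without Arg1 and 16436 CPM in Cd209a or Mgl2 cells of the Momordicine-I library, and at 2910 and 15650 CPM in those of the vehicle library. Cell cycle genes were lower in 8 of 11. Classical monocyte genes were higher in 17 of 19, Vcan at 633 CPM in the monocytes and 19.6 CPM in Cd209a or Mgl2 cells with Momordicine-I, and with no UMI in the Cd209a or Mgl2 cells of the vehicle library. Interferon response genes were higher in 25 of 42, with medians of 0.82 in the Momordicine-I and 1.75 in the vehicle library.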

How the data were processed

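For each of the 2 libraries the authors deposited a matrix of raw UMI counts over 32285 genes, and all sample columns were used. The libraries were made with the 10x Genomics 3' 3.1 kit according to the labels, while Cell Ranger 6.0.2 and mm10 are named in the submitters' processing notes. Cells with fewer than 200 genes or over 10% mitochondrial UMIs were removed. Scrublet's automatic threshold marked 1 of 4370 Momordicine-I and 2 of 3364 vehicle cells, so it did not work here and no doublets were removed; the removal of its 182 and 126 highest-scoring cells, 4 and 0 of them monocytes without Arg1, is an alternative.

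UMIs were summed over the chosen cells of a library, divided by their total and scaled to counts per 1e6 (CPM). With 1 library per group no test was made. Ratios carry exact conditional binomial 95% intervals and shares Clopper-Pearson intervals. The calculation was tested on simulated counts that varied by counting error only. That cannot show how the intervals hold where 1 cell has much of a gene's UMIs. Python 3.11.15, numpy 2.4.6, scipy 1.17.1, pandas 2.3.3 and scanpy 1.11.5 were used. Gene positions are from GENCODE on GRCm38, matched by Ensembl identifier.

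The members, the 26 gene lists and the 17 marker lists were chosen with earlier results of these data known. Mx1, Mx2, Aldoa, Clec7a and Ddit3 of the lists were not analysed here. Named genes had at least 50 UMIs over both libraries, at least 50 CPM in 1 or both, UMIs in at least 10% of the members of the library where they are higher and no cell with over 25% of that library's UMIs; of these, the 12 higher and 12 lower with the interval farthest from 1 are named, and 8 each in comparisons with neighbouring cells. Further genes come from the lists, by UMI sum or ratio, or were chosen as monocyte genes; Hmox1, Saa3, Bbc3, Phf11d and Ifi213 were singled out after their values were seen. Some genes that the rule or the lists would name are not reported here, and they stay in the counts and medians.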

Additional observations from a re-analysis of the deposited data

How the results depend on the processing

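No paired analysis was possible because each group is 1 library. Over 14 alternatives the ratio of shares ran from 1.55 to 2.31, and over 18 the interferon median from -1.85 to -1.04. Of these, 2 were chosen after seeing the data, without cells that held at least 5 UMIs of one of the 6 other-type lists and without cells over 1% MHC class II. The interferon median was -1.29 with Arg1 of at most 1, -1.20 with neutrophil markers of at most 0.5%, -1.36 without each gene's highest cell and -1.04 after thinning cells to 2000 UMIs, where 19 of 23 measured genes were lower. The class II median was 0.57 with both Ly6c2 and Ccr2 required, 0.049 with Csf1r required, -0.11 without cells holding RNA of another type, 0.046 by the mean of the cells' CPM, 0.19 after thinning and 0.019 without the highest cell; H2-Eb1 turned in the same 6, to 3.24, 0.61, 0.24, 0.035, 0.31 and 0.27, and Ciita to 0.14 in the first. The rule applied after thinning to 3000 UMIs turned Ccl2 (-0.34), Nfkbiz (-0.057), Ifitm1 (-0.48), Tnfaip3 (-0.43) and Acod1 (-0.99), thinning to 2000 UMIs turned Nfkbiz (-0.50), and leaving out the highest cell turned Spp1 (0.50) and moved the macrophage differentiation median to 0.25. Genes higher and lower between the libraries numbered 267 and 243 after thinning, 292 and 398 with at least 50 UMIs and 1609 and 1813 with at least 5, and 1324 were higher without the highest cell. Beside Arg1-positive cells, genes higher and lower numbered 41 and 45 after thinning, 75 and 87 with at least 50 UMIs and 443 and 532 with at least 5. There 297 were higher with the rule after thinning to 3000 UMIs and 294 without the highest cell, 125 were lower with both Ly6c2 and Ccr2 and 89 with neutrophil markers of at most 0.5%, and the glycolysis median of the Momordicine-I library was -0.89 with the rule after thinning. Of 1453 further values under alternatives, 18 are numbers of measured interferon response genes, judged by a 1.5-fold band. The others are values of named genes, judged by the counting interval of the main value. Of the 1453, 1216 stayed within these limits and 223 left them. Another 14 changed sign in genes whose main ratio was past 1.5-fold. Sign changes of genes within 1.5-fold lie among the 1216 and 223. Cd74 and H2-Ab1, for example, had the other sign in 7 of 17 alternatives each. The 30 vehicle cells and their 513420 UMIs limit the precision.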

Other observations

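Immediate early genes, which respond to stimulation within minutes and also to the handling of tissue, were close to level in monocytes without Arg1. Of 19 measured, 2 were higher and 1 lower in Momordicine-I cells, against 11.8% and 12.6% of all genes. The median log2 ratio was 0.14. Fos stood at 2108 CPM in Momordicine-I and 2193 CPM in vehicle monocytes, and Jun at 2127 CPM with Momordicine-I and 2267 CPM with vehicle. Of 8 cell cycle genes measured, 2 were higher and none lower, against 11.8% and 12.6% of all genes. Mki67, a mark of dividing cells, had 15 UMIs in Momordicine-I and 5 in vehicle monocytes, or 11.4 CPM with Momordicine-I and 9.74 CPM with vehicle.

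Among genes for lipid handling, 4 of 13 measured were higher in Momordicine-I monocytes, against 11.8% of all genes. None was lower, against 12.6% of all genes, and the median was 0.24. The 4 were Apoe, Trem2, Lipa and G0s2. Apoe had a ratio of 1.506. Trem2, a lipid receptor of macrophages, stood at 48.6 CPM with Momordicine-I and 31.2 CPM with vehicle. Lipa, the lysosomal lipase, stood at 35.7 CPM with Momordicine-I and 19.5 CPM with vehicle. G0s2 is a neutrophil marker of the rule, with 54.5% of its vehicle UMIs in 1 cell. Trem2 and Lipa rest on 16 and 10 vehicle UMIs.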
